A study of Mus musculus with 6 samples.

Results

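The epithelial-mesenchymal transition (EMT) genes described here are 10 transcription factors and marker genes, chosen by symbol from 30927 genes measured on Affymetrix arrays. They are the zinc finger repressors Zeb1, Zeb2, Snai1 and Snai2, the helix-loop-helix factors Twist1 and Twist2, the intermediate filament protein gene Vim, the smooth muscle genes Acta2 and Tagln, and the adhesion molecule gene Ncam1. Each of the 10 has 1 row in the value table, so no member was left out. The arrays hold RNA of BMEL cells, an immortalized hepatoblast line taken from the liver of wild-type CD1 mouse embryos at E12.5. Cells of the control mimic group (3 arrays) received 500 ng of a negative control microRNA mimic, and cells of the miR-337-3p mimic group (3 arrays) received 500 ng of a mimic of mmu-miR-337-3p. Both groups were plated on collagen at 50000 cells per well, transfected with Lipofectamine and harvested 48 h later. The comparison asks how the level of each gene differs once miR-337-3p is raised.

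EMT is the change by which an epithelial cell loosens its junctions and takes on the filaments, matrix and motility of a mesenchymal cell. SNAIL, ZEB and TWIST proteins drive it, and the SNAIL and ZEB repressors bind E-box sequences in promoters of junction genes such as that of E-cadherin. In epithelial cells the microRNAs of the miR-200 family hold down Zeb1 and Zeb2, which in turn repress the miR-200 genes. In the fetal liver, hepatoblasts are epithelial cells that lie among mesenchymal cells, and cultured liver cell lines often carry mesenchymal filaments beside epithelial keratins.

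The mature sequence of the microRNA that was transfected is shown with those of the miR-200 family, because the seed decides which transcripts a microRNA can pair with. Sequences are from RefSeq (GRCm38.p6), 5′ to 3′, and capitals mark the seed, bases 2 to 8. The mimic sequence itself was not used here.
mmu-miR-337-3p: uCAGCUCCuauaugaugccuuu
mmu-miR-200b-3p: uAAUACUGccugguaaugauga
mmu-miR-200c-3p: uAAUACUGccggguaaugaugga
mmu-miR-429-3p: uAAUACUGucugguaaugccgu
mmu-miR-200a-3p: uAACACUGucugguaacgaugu
mmu-miR-141-3p: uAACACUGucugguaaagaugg
The first of these lies at chr12:109585850-109585871 on the plus strand. miR-200b, miR-200c and miR-429 share the seed AAUACUG, miR-200a and miR-141 share AACACUG, and the seed of miR-337-3p, CAGCUCC, is neither of these.

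Of the 10 EMT genes, Zeb1 rose after miR-337-3p mimic and 0 fell in limma, a linear model fitted over all genes, at a Benjamini-Hochberg adjusted p under 0.05. Over all genes tested 3.57% passed that test in either direction and 1.89% passed as higher. At an unadjusted p under 0.05, limma gave 1 member higher and 0 lower, where 8.7% of all genes were higher and 6.38% lower. In the authors' deposited table, 2 members, Zeb1 and Vim, have an ANOVA p-value under 0.05 where 13.1% of all genes do, and 0 have an FDR p-value under 0.05. Among the 10 members, 9 had a log2 difference above 0, against 53.9% of all genes, and their median was 0.18, against 0.02 over all genes. Members whose groups did not overlap were Zeb1 and Vim, 2 of 10, where 19.6% of all genes did not overlap. Nothing in the labels tells whether the replicates came from separate cultures. The p-values therefore reflect the spread among these arrays alone, and that spread may be technical. In bulk RNA, more cells with a transcript and more of it per cell cannot be told apart.

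Median log2 signals over all genes lay between 4.83 and 5.01 on the 6 arrays and were highest on the arrays numbered 1 in each group. The tables carry no detection call. As a mark of low signal, the 95th percentile of 1086 olfactory receptor genes was taken on each array, and it ran from 4.70 to 5.11. Zeb1, Zeb2, Snai2, Vim, Acta2 and Ncam1 lay above that mark on all 6 arrays, Snai1 and Twist1 on 4, Twist2 on 2 and Tagln on 0. For signals near the mark, transcript and array background cannot be told apart. The array medians lie near that mark, so the shares given over all genes include many genes at such signals. Shares among genes of like signal are not given here. The BMEL label was checked against 10 hepatoblast markers, whose mean log2 signal lay between 8.66 and 9.03 in control and between 8.43 and 8.62 in mimic samples. Levels differed widely among these markers. The keratin genes Krt8 and Krt18 averaged 11.97 and 11.94 in control samples and the hepatic factor gene Hnf4a 10.04. The serum protein genes Afp and Alb averaged 6.54 each in control samples. Dlk1, a surface marker of hepatoblasts, averaged 4.71 there and lay above the low-signal mark on 4 of the 6 arrays.

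**Figure D1:**
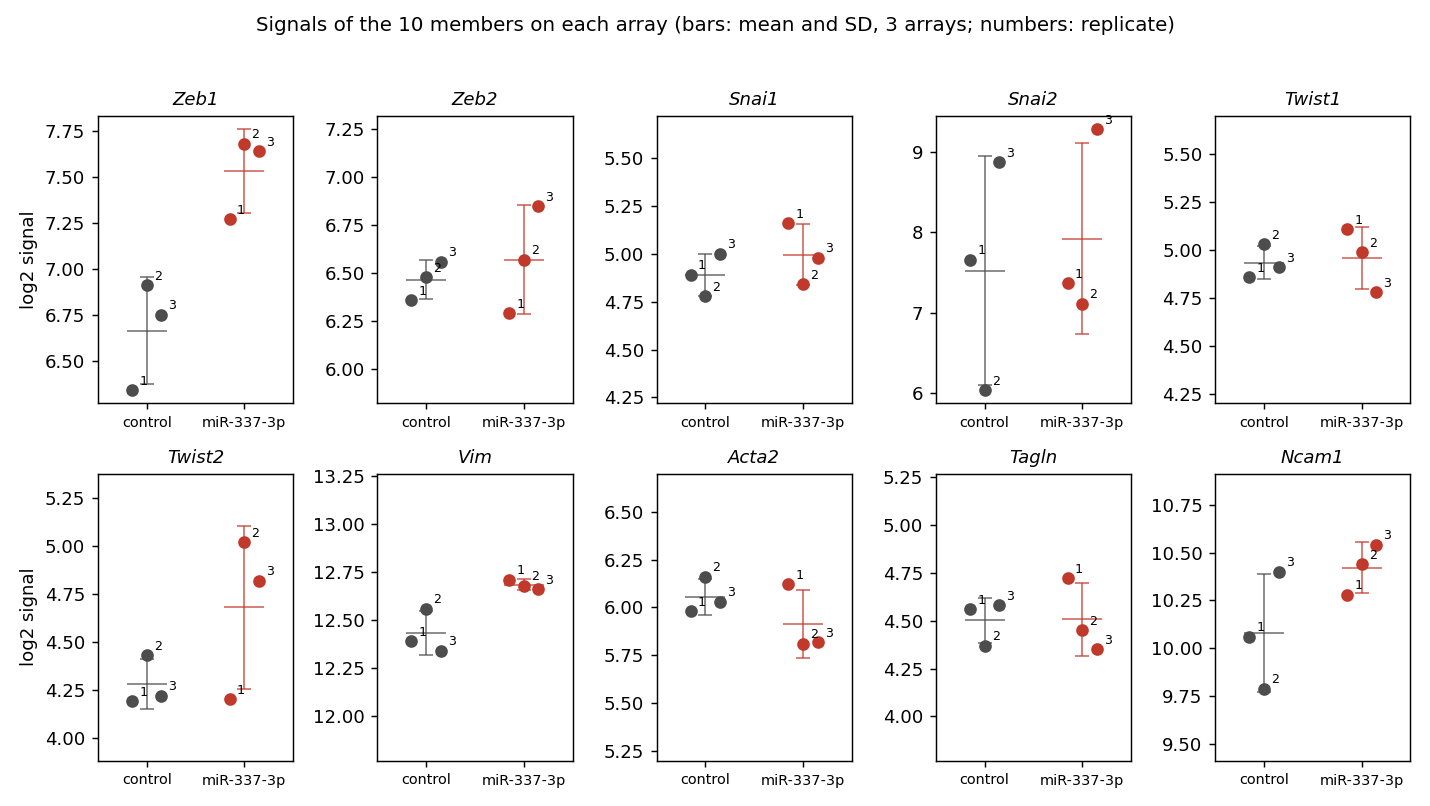
Log2 signal (y axis) of each of the 10 EMT genes on the 3 control mimic arrays (grey) and the 3 miR-337-3p mimic arrays (red), with the replicate number beside each point; bars are the mean and SD, and the y range differs between panels. The mimic arrays lie above all control arrays for Zeb1 and Vim, and Snai2 spreads more within each group than any other member.

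Zeb1, a zinc finger and homeodomain repressor of epithelial genes, rose (transcript cluster 17348202). Its log2 signals were 6.34, 6.91 and 6.75 in control replicates 1 to 3 and 7.27, 7.68 and 7.64 in mimic replicates 1 to 3. All mimic arrays lay above all control arrays. The mean went from 6.66 ± 0.29 to 7.53 ± 0.23 (SD, 3 arrays per group), which is 0.87 higher in log2 units (SE 0.18), or 1.83-fold with a 95% interval from 1.36 to 2.44 (limma, Benjamini-Hochberg adjusted p = 0.0422). Between arrays of the same replicate number the log2 differences were 0.93, 0.78 and 0.90, closer to each other than the signals within either group. With the replicate number as a block the SE was 0.11 and the adjusted p 0.00526. It was kept without mimic replicate 1 (limma adjusted p = 0.0491), lost without any other single array (0.0502 to 0.139), and lost without both arrays of replicate 1 (0.106). Over these fits without 1 array the log2 difference stayed between 0.71 and 1.00. The authors' deposited table gives Zeb1 a ratio of 1.93, an ANOVA p-value of 0.0155 and an FDR p-value of 0.257.

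Zeb2, the paralog of Zeb1, showed no such difference in its values. Its log2 signals were 6.36, 6.48 and 6.56 in control and 6.29, 6.57 and 6.85 in mimic samples. The groups overlapped, with mimic replicate 1 the lowest and mimic replicate 3 the highest of the 6 arrays. The log2 difference was 0.10, with a 95% interval from -0.27 to 0.48 (limma adjusted p = 0.881). The upper end of that interval is 1.39-fold higher. The log2 ratio of Zeb1 to Zeb2 within each array was -0.02, 0.42 and 0.19 in control and 0.98, 1.11 and 0.79 in mimic samples. It averaged 0.76 more in mimic samples. This ratio was chosen after the values were seen and is given as a description. An exact permutation test of it gave p = 0.1, the smallest that 3 against 3 arrays allow, so it cannot decide.

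The SNAIL genes differed in level and in spread. Snai1, which represses the E-cadherin gene through E-boxes, read 4.89, 4.78 and 5.00 in control and 5.16, 4.84 and 4.98 in mimic samples. These signals overlapped and lay near the low-signal mark, and the log2 difference was 0.10 (95% interval from -0.20 to 0.41, limma adjusted p = 0.847).
Snai2, which encodes the SNAIL family factor SLUG, read 7.66, 6.04 and 8.87 in control and 7.37, 7.11 and 9.28 in mimic samples. The spread within the control group, 2.83 from lowest to highest on the log2 scale, was several times the log2 difference of 0.40 between the groups. The SE of that difference was 0.74 and its 95% interval ran from -1.29 to 2.08 (limma adjusted p = 0.906). Both arrays numbered 3 were the highest of their groups and both arrays numbered 2 the lowest. Within the same number, mimic minus control was -0.29, 1.07 and 0.41. With the replicate number as a block the SE fell to 0.23 and the adjusted p was 0.393 in limma. The direction turned without control replicate 2 (-0.34), without mimic replicate 3 (-0.28) and in the authors' deposited table, whose bi-weight averages give a ratio of 0.806.

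**Figure D2:**
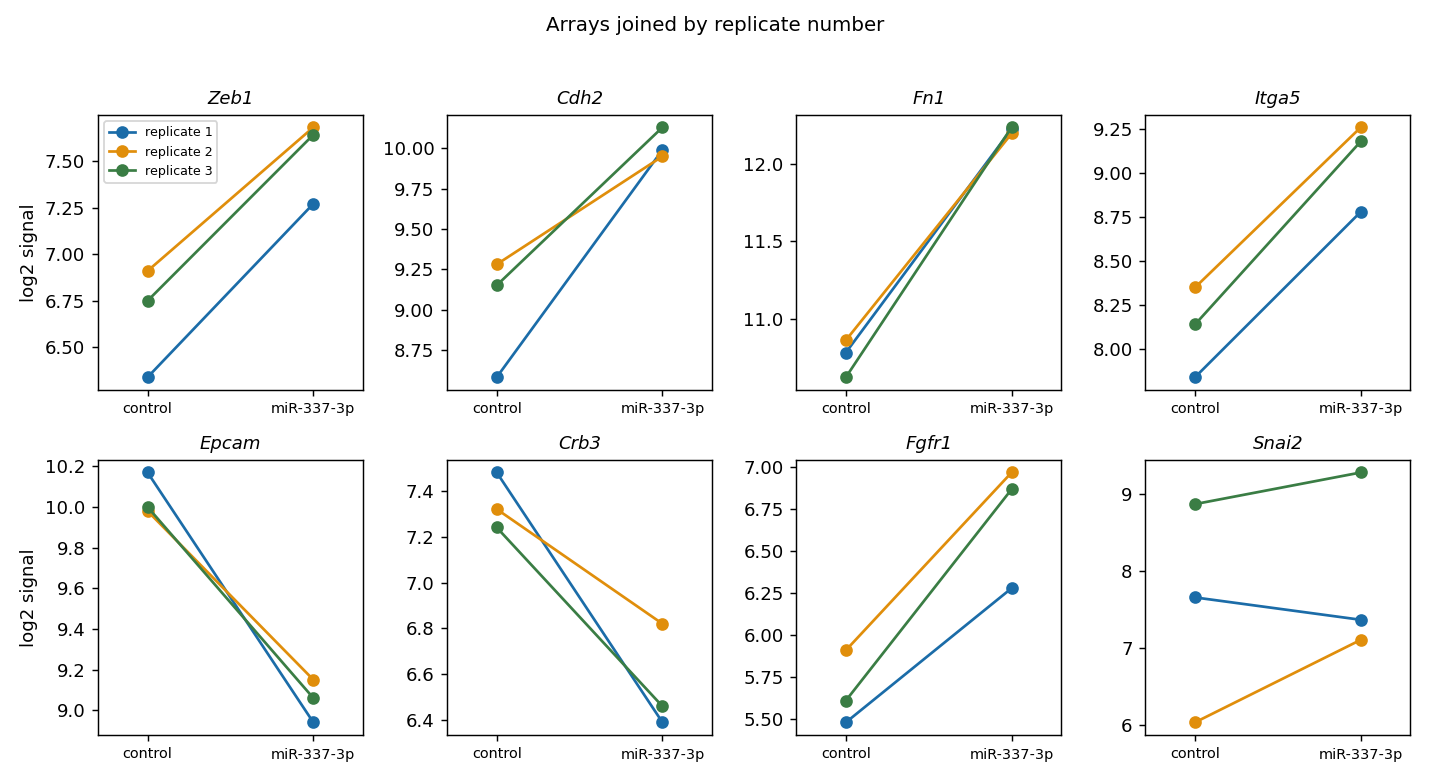
Log2 signal (y axis) of 8 genes in control mimic and miR-337-3p mimic samples, with lines joining arrays that carry the same replicate number; the y range differs between panels. All 3 lines climb for Zeb1, Cdh2, Fn1, Itga5 and Fgfr1 and descend for Epcam and Crb3, while Snai2 differs more between replicate numbers than between groups.

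The TWIST genes, which encode helix-loop-helix factors of mesenchymal cells, lay at or near the low-signal mark. Twist1 read 4.86, 5.03 and 4.91 in control and 5.11, 4.99 and 4.78 in mimic samples. The groups overlapped, and the log2 difference of 0.02 had a 95% interval from -0.28 to 0.33 (limma adjusted p = 0.974).
Twist2 read 4.19, 4.43 and 4.22 in control and 4.20, 5.02 and 4.82 in mimic samples. Mimic replicates 2 and 3 were higher than every control array, and mimic replicate 1 was within the control range. It was higher by 0.40 in log2 units (SE 0.21, 95% interval from -0.07 to 0.88, limma adjusted p = 0.442), and it depended on single arrays. Without mimic replicate 1 it was 0.64 (limma adjusted p = 0.0870), and without mimic replicate 2 it was 0.23 (limma adjusted p = 0.772).

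Vimentin (Vim), the intermediate filament protein of mesenchymal cells, was bright in both groups. Its log2 signals were 12.39, 12.56 and 12.34 in control and 12.71, 12.68 and 12.66 in mimic samples. The mimic arrays lay above the control arrays, within a narrow range. The log2 difference was 0.25 (SE 0.12), or 1.19-fold with a 95% interval from 0.985 to 1.44, and did not pass the test (limma adjusted p = 0.387, 0.239 with the block). Of 6 filament proteins and partners of vimentin, 0 rose and 0 fell in limma, and at an unadjusted p under 0.05 the neuronal filament gene Prph was higher (log2 difference 0.66, adjusted p = 0.207) and the linker gene Plec lower (-0.39, adjusted p = 0.232). For 1 of the 6 there is an ANOVA p-value under 0.05 in the authors' deposited table, where 13.1% of all genes have one. Over all genes 1.89% rose and 1.68% fell in limma, and 8.7% were higher and 6.38% lower at an unadjusted p under 0.05. The progenitor filament gene Nes had a log2 difference of 0.30 (adjusted p = 0.482) and the filament gene Synm -0.22 (adjusted p = 0.599), and desmin (Des), a filament of stellate cells, read between 4.30 and 4.89 on the 6 arrays.

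Acta2, the smooth muscle actin gene that marks myofibroblasts, read 5.98, 6.16 and 6.03 in control and 6.12, 5.81 and 5.82 in mimic samples. The groups overlapped, and its log2 difference of -0.14 (95% interval from -0.45 to 0.17, limma adjusted p = 0.765) was the only one below 0 among the 10 members.
Tagln, which encodes the actin-binding protein SM22, read 4.56, 4.37 and 4.58 in control and 4.72, 4.45 and 4.35 in mimic samples. It was below the low-signal mark on every array, and the log2 difference was 0.01 (95% interval from -0.32 to 0.33, limma adjusted p = 0.994). The intervals put an upper limit of 1.12-fold on a rise of the Acta2 signal and of 1.26-fold on a rise of the Tagln signal.

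Other contractile genes and targets of SRF, the serum response factor, did not all follow Acta2 and Tagln. Of 17 measured, 2 rose and 0 fell in limma, and 7 were higher and 0 lower before adjustment (p under 0.05). Over all genes 1.89% rose and 1.68% fell, and 8.7% were higher and 6.38% lower before adjustment. Filamin A (Flna), which crosslinks actin, rose from 9.53 ± 0.15 to 10.55 ± 0.09 (SD, 3 arrays each), higher by 1.02 in log2 units (SE 0.13, limma adjusted p = 0.00722), also in every fit that left out 1 array. Alpha-actinin 1 (Actn1), a bundling protein, rose by 0.54 (SE 0.12, adjusted p = 0.0468), a call lost without any single array (up to 0.175). The focal adhesion gene Zyx was at 0.69 (adjusted p = 0.0664, 0.0170 with the block). Tropomyosin Tpm1 was at 0.50 (adjusted p = 0.0895, 0.0364 with the block). Smtn, a smooth muscle actin-binding protein gene named after its value was seen, also passed with the block (0.98, adjusted p = 0.00472) and not without it (0.218). Of the 17, 12 had a log2 difference above 0 and 5 below. Among those below were Tpm2 (-0.36, adjusted p = 0.352), Tagln2 (-0.28, adjusted p = 0.350) and Actg2 (-0.24, adjusted p = 0.455). Actg2 lay below the low-signal mark on all 6 arrays. The median of the 17 was 0.15. Of the 4 genes of SRF and its cofactors, 0 rose and 0 fell, with 0 also at an unadjusted p under 0.05 in limma and in the authors' deposited table. Srf had a log2 difference of 0.04, Mkl1 of -0.17, Mkl2 of 0.18 and Myocd of -0.28.

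Ncam1, a neural cell adhesion molecule that reactive bile duct and stellate cells also carry, read 10.06, 9.79 and 10.40 in control and 10.28, 10.44 and 10.54 in mimic samples. Control replicate 3 was above mimic replicate 1, so the groups overlapped. The log2 difference was 0.34 (SE 0.17, 95% interval from -0.05 to 0.73) and did not pass (limma adjusted p = 0.429, 0.193 with the block). Within the same replicate number it was 0.22, 0.66 and 0.14, higher in all 3. Of 7 relatives and partners of NCAM, 1 rose and 0 fell in limma, where 1.89% of all genes rose and 1.68% fell. The relative or partner that rose was the fibroblast growth factor receptor gene Fgfr1, whose protein NCAM is known to bind. Fgfr1 rose from 5.67 ± 0.22 to 6.71 ± 0.37, higher by 1.04 in log2 units (SE 0.20, limma adjusted p = 0.0321), kept without control replicate 2 or mimic replicate 1 and lost without any of the other arrays (up to 0.131). The kinase gene Fyn, which acts downstream of NCAM, was at -0.95 on the same scale (adjusted p = 0.257) and fell with the block (adjusted p = 0.00796). Ncam2 and Chl1, related adhesion genes, read 4.19 at most on any array and differed by -0.36 (adjusted p = 0.425) and 0.09 (adjusted p = 0.873) in log2 units.

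**Figure D3:**
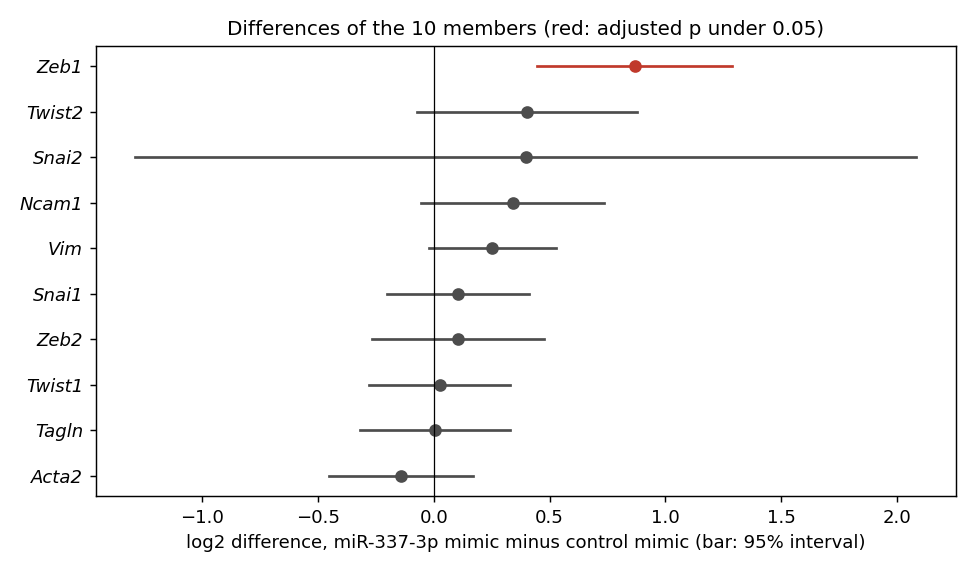
Log2 difference, miR-337-3p mimic minus control mimic (x axis), of the 10 EMT genes with 95% intervals from limma; red marks an adjusted p under 0.05. The interval of Zeb1, from 0.45 to 1.29, excludes 0, those of the other 9 members include 0, and Snai2 has the widest.

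Among 11 further transcription factors of EMT, 2 rose and 0 fell in limma, with 4 higher and 0 lower at an unadjusted p under 0.05. The shares of all genes were 1.89%, 1.68%, 8.7% and 6.38%, in that order. Hmga2, an architectural DNA-binding protein that activates Snai1 and Twist1 in other epithelial cells, read 9.56, 9.92 and 9.98 in control and 11.26, 11.06 and 11.37 in mimic samples. The mimic arrays lay at least 1 log2 unit above the control arrays, and the log2 difference was 1.41 (SE 0.16), or 2.65-fold (limma adjusted p = 0.00479), kept without any single array (up to 0.0213). Tcf3, which encodes the E2A proteins that repress E-cadherin, rose by 0.68 (SE 0.13, adjusted p = 0.0304), a call lost without any single array (up to 0.127). Snai3 and Tcf4 did not overlap between groups and did not pass, Snai3 at 0.35 in log2 units (adjusted p = 0.185) and Tcf4 at 0.42 (adjusted p = 0.172). In all, 4 of the 11 did not overlap, where 19.6% of all genes did not. The median of the 11 was 0.33.

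Corepressors and regulators of the stability of SNAIL and ZEB proteins were also read. Of these 14 genes limma called 0, where it called 3.57% of all genes. Before adjustment (p under 0.05) 5 were higher and 0 lower, and 7 had an ANOVA p-value under 0.05 in the authors' deposited table. Over all genes 8.7% were higher and 6.38% lower before adjustment in limma, and 13.1% had such an ANOVA p-value. With the replicate number as a block, 2 of the 14 rose, in a fit that called 4.7% of all genes as higher and 3.88% as lower, 8.58% in all. These were Ctbp1, the corepressor that ZEB proteins recruit (log2 difference 0.46, adjusted p = 0.125, 0.0482 with the block), and Usp27x, a deubiquitinase that stabilises SNAI1 in human cells (0.83, adjusted p = 0.0859, 0.00583 with the block). Usp27x lay above the low-signal mark on only 3 of the 6 arrays. Ezh2, a histone methyltransferase, had a log2 difference of 0.45 (adjusted p = 0.106) and Fbxw7, a ubiquitin ligase subunit gene, 0.38 (adjusted p = 0.184).
Rows for 5 of 6 microRNA genes of the miR-200 family and miR-205 were measured, all with means between 2.81 and 4.50, below the array medians. In limma 0 of them rose and 0 fell, where 1.89% of all genes rose and 1.68% fell. At an unadjusted p under 0.05, 1 was higher, Mir200c, which read 3.67, 3.70 and 3.47 in control and 4.24, 3.91 and 3.85 in mimic samples (log2 difference 0.39, adjusted p = 0.242). Log2 differences were -0.22 for Mir141, 0.06 for Mir200a and 0.07 for Mir200b. The row of Mir337 averaged 3.99 ± 0.21 without and 4.26 ± 0.30 with the mimic (limma adjusted p = 0.596). Such rows are annotated to microRNA genes, and whether they read mature microRNAs is not known here, so they are no check of the transfected mimic.

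**Figure D4:**
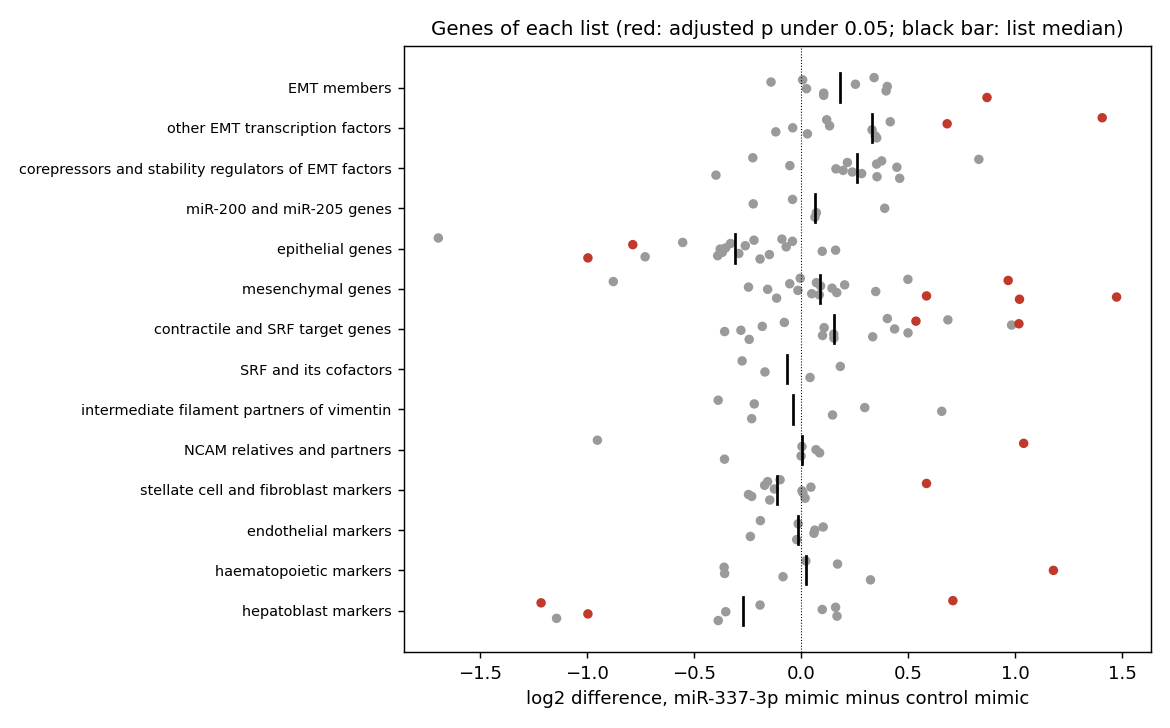
Log2 difference, miR-337-3p mimic minus control mimic (x axis), of every measured gene of the 10 members and of each further list (rows); red marks an adjusted p under 0.05 in limma and black bars are list medians. Calls lie at or above 0.54 on the positive side for EMT, mesenchymal and contractile genes and at -0.79 and -0.997 for epithelial genes, whose median was -0.31.

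Epithelial genes, among them known targets of ZEB and SNAIL repression, had 18 of 20 members with a log2 difference below 0 and a median of -0.31. In limma 2 fell and 0 rose, where 1.68% of all genes fell. Before adjustment 9 were lower and 0 higher (p under 0.05), and with the block 5 fell. Over all genes 6.38% were lower and 8.7% higher before adjustment, and 3.88% fell with the block. This and the other gene lists were chosen with earlier results of these data known, so their counts are descriptions. Epcam, an adhesion protein of epithelial progenitors, read between 9.98 and 10.17 in control samples and 8.94, 9.15 and 9.06 in mimic samples. It fell by 0.997 on the log2 scale (SE 0.13, limma adjusted p = 0.00682), also in every fit that left out 1 array. Crb3, which encodes the apical polarity protein Crumbs 3, read 7.48, 7.32 and 7.24 in control and 6.39, 6.82 and 6.46 in mimic samples. Crb3 fell by 0.79 (SE 0.15, adjusted p = 0.0305), a call kept without mimic replicate 2 and lost without any other single array (up to 0.128).

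Of the 20 epithelial genes, 9 did not overlap between groups, where 19.6% of all genes did not. Among them were the splicing factor gene Esrp2, which maintains epithelial splice forms, and the tight junction gene Ocln. Esrp2 was at -0.55 in log2 units (adjusted p = 0.0525, 0.0231 with the block). Ocln was at -0.73 (adjusted p = 0.0586, 0.0280 with the block). Elf3, an epithelial ETS factor gene named after its value was seen, had -1.70 (SE 0.71, adjusted p = 0.306, 0.0388 with the block). It was -0.99 without mimic replicate 1 and -2.52 without mimic replicate 2. E-cadherin (Cdh1), the junction protein whose loss is a hallmark of EMT, averaged 11.25 ± 0.12 in control and 11.06 ± 0.08 in mimic samples. The groups overlapped, since control replicate 3 (11.11) was below mimic replicate 2 (11.14), with a log2 difference of -0.19 and a 95% interval from -0.48 to 0.09 (limma adjusted p = 0.584). Krt8 and Krt18 had log2 differences of 0.10 and 0.16 (adjusted p = 0.848 and 0.667).

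Mesenchymal genes split between a few that rose and many at low signal, with 4 of 20 rising and 0 falling in limma and 5 higher and 0 lower at an unadjusted p under 0.05. Over all genes 1.89% rose and 1.68% fell, and 8.7% were higher and 6.38% lower at that unadjusted p. N-cadherin (Cdh2), the cadherin that replaces E-cadherin in EMT and that hepatocytes also carry, read 8.58, 9.28 and 9.15 in control and 9.99, 9.95 and 10.13 in mimic samples. It rose by 1.02 (SE 0.19, adjusted p = 0.0257), a call kept without control replicate 2 and lost without any other single array (up to 0.0794). A dimmer row of Cdh2 was higher by 0.76 (SE 0.27, adjusted p = 0.208 with every row fitted). The log2 ratio of Cdh2 to Cdh1 within each array was -2.70, -2.08 and -1.96 in control and -1.01, -1.19 and -0.89 in mimic samples. It is also a description chosen after the values were seen, and the same exact permutation test gave p = 0.1. Fibronectin (Fn1), a matrix protein, rose by 1.47 (SE 0.12, adjusted p = 0.00253), in every fit that left out 1 array. Its receptor subunit gene Itga5 rose by 0.97 (SE 0.18, adjusted p = 0.0278), kept without control replicate 2 or mimic replicate 1 and lost in the other 4 such fits (up to 0.106). Col1a1, a fibrillar collagen chain, rose by 0.59 (SE 0.12, adjusted p = 0.0384) from a low signal of 5.44 ± 0.08 in control samples, a call lost without any single array (up to 0.118). The other fibrillar collagen chains of the list did not pass. Col1a2 was at 0.08 (adjusted p = 0.882), Col3a1 at 0.05 (adjusted p = 0.936) and Col5a1 at 0.17 (adjusted p = 0.673). The median of the 20 was 0.09.

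The genes most like Zeb1 were sought by the root mean square difference of log2 signals over the 6 arrays, each gene centred on its own mean. The 3 nearest were Itga5 at 0.06, the noncoding RNA gene Rian at 0.08 and Lix1l at 0.08. Itga5 read 7.84, 8.35 and 8.14 in control and 8.78, 9.26 and 9.18 in mimic samples, with the arrays numbered 1 lowest in both groups, as for Zeb1. Rian read 5.67, 6.13 and 5.86 in control and 6.50, 6.89 and 6.75 in mimic samples. Lix1l had a log2 difference of 0.80 (limma adjusted p = 0.0715). These are descriptions over 6 arrays that share the group difference.

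Promoters of the epithelial genes Crb3 and Epcam are shown as examples, chosen after their values were seen, of promoters with the E-box letters that ZEB and SNAIL proteins are known to bind. The motif searched was CAGGTG on both strands, which reads CACCTG on the other strand, in the 250 bases before the start of each gene. Sequences are from RefSeq (GRCm38.p6), plus strand, at chr17:57061951-57062200 for Crb3 and chr17:87635729-87635978 for Epcam, and capitals mark the motif.
Crb3: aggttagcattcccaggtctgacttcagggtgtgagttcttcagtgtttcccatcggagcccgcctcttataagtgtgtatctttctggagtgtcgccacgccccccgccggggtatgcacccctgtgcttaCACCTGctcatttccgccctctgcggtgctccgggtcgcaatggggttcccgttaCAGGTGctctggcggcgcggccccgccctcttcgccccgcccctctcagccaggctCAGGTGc
Epcam: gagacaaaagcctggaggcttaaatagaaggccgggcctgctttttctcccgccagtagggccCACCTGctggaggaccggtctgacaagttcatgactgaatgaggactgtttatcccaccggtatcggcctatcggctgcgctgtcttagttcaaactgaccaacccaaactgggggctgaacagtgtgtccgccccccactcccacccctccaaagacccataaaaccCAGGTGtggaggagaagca
Crb3 holds 3 copies in this window and Epcam 2. Of 32851 promoters in the RefSeq table, 17.2% held at least 1 copy, 2.06% at least 2 and 0.247% at least 3. By gene, 8 of the 13 epithelial genes with a promoter in the table held the motif, 0 of 11 mesenchymal genes, and 1 of 6 members, Snai1, against 19.4% of all genes. Besides Crb3 and Epcam, the epithelial genes with the motif were Cldn4, Cldn7, Elf3, Krt8, Krt18 and Ocln, none of which passed limma's test, and Krt8 and Krt18 had log2 differences above 0. No promoter of Zeb1, Cdh1, Cdh2, Fn1 or Col1a1 was among those searched, so these genes are not in the fractions. All epithelial genes searched that lacked the motif had log2 differences below 0. A match describes these letters only, and binding was not measured here.

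Markers of other liver cells were read beside these genes. Of 12 stellate cell and fibroblast markers, 1 rose, Col1a1 as above, and 0 fell, where 1.89% of all genes rose and 1.68% fell. Of the 12, 7 lay below the low-signal mark on all 6 arrays, among them Lrat, Reln, Hgf and Dcn. The mean log2 signal of the 12 was 4.41 to 4.50 in control and 4.34 to 4.55 in mimic samples. The receptor gene Pdgfrb had a log2 difference of -0.25, Des of -0.23 and Lrat of -0.15. All 7 endothelial markers lay below the mark on all arrays, at mean signals of 4.11 to 4.23 in control and 4.04 to 4.27 in mimic samples. Of these 7, 0 were called in limma and 0 passed an unadjusted p under 0.05, where 8.7% of all genes were higher and 6.38% lower. Log2 differences were -0.19 for Emcn, -0.24 for Cdh5, 0.10 for Lyve1 and 0.06 for Stab2. Of 7 haematopoietic markers, Cd68, a lysosomal protein gene, rose by 1.18 (SE 0.23, limma adjusted p = 0.0320), kept without control replicate 2 or mimic replicate 1 only (up to 0.115). The others did not pass, with log2 differences of 0.32 for the leukocyte gene Ptprc, -0.36 for Emr1 and -0.36 for Csf1r, and 4 of the 7 lay below the mark throughout. Mean signals of these markers were 4.45 to 4.69 in control and 4.63 to 4.78 in mimic samples. Of the same 12 stellate cell and fibroblast markers, Col1a1 and Lhx2 lay above the mark on 6 arrays, Pdgfrb and Ngfr on 4 and Des on 1. The part of other cell types in the rise of Zeb1, Cdh2 and Fn1 was not tested.

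Of the 10 hepatoblast markers, 2 fell and 1 rose in limma, where 1.68% of all genes fell and 1.89% rose. Epcam fell as above, and the thyroid hormone carrier gene Ttr fell by 1.22 (adjusted p = 0.0259, kept without control replicate 3 and lost without any other array, up to 0.109). Albumin (Alb) had a log2 difference of -1.14 (adjusted p = 0.127, 0.0249 with the block), and without control replicate 2 it was -0.72 (limma adjusted p = 0.152). Hnf4a had -0.35 (adjusted p = 0.271) and the fetal serum protein gene Afp -0.39 (adjusted p = 0.524).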

How the data were processed

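RNA of 6 BMEL samples, 3 per group, was labelled from 6 ug of total RNA for Affymetrix arrays, per the labels' protocols. The array design, software and normalization were not given in the sources used here. A deposited value table holds 1 log2 signal per transcript cluster and array (41345 rows), taken as normalized by the authors. Their comparison table gives, per the file headers, bi-weight averages of log2 signals, a signed fold change (a score), a linear ratio and the p-value of an ANOVA before and after FDR correction. Symbols came from that table. Of 32453 named rows, the brightest row of each of 30927 genes was used (909 genes have several rows).

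Groups were compared with limma 3.58.1 in R 4.3.3 (lmFit, eBayes, no trend, no filter), with Benjamini-Hochberg adjustment over all genes, a threshold of 0.05 and 95% intervals from limma's SEs. Python 3.11.15 with scipy 1.17.1, numpy 2.4.6 and pandas 2.3.3 ran the other steps, and the fit was tested on simulated data. Members, gene lists and the low-signal mark were chosen with earlier results of these data known. The rule named all members, up to 4 genes per further list with the smallest unadjusted p, Cdh1, Cdh2, Epcam and Mir337, and the 3 genes most like each called member. The genes Elf3, Smtn, Krt8, Krt18, Hnf4a, Afp, Dlk1, Cldn4, Cldn7, Lhx2 and Ngfr were named after their values were seen. So were Tpm2, Tagln2, Actg2, Col1a2, Col3a1 and Col5a1. The motif and the ratios shown were also chosen after values were seen. Deviations from group means correlated at 0.431, 0.370 and 0.442 between arrays of the same replicate number, each above 0.1, which meets the criterion for pairing by number. The labels do not say what a number marks, so this rests on the values. The reported SEs, intervals and adjusted p-values are from the fit without the block, and values with the block are named as such. Alternatives were a replicate block, quantile normalization, leaving out dim genes, every row fitted, limma's trend and robust options, the authors' FDR p-value, and leaving out each array or both arrays of replicate 1. Some genes of the lists are not reported by name here. No detection call or 3' UTR sequence was used here.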

Additional observations from a re-analysis of the deposited data

How the results depend on the processing

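The 1 call among the 10 EMT genes, Zeb1, was made in limma with the replicate block, with quantile normalization, without dim genes, with every row fitted and with the trend and robust options. It was 0 by the authors' deposited FDR p-value, which calls 4 of all genes, 0 without both arrays of replicate 1, and 0 to 1 with 1 array left out. The fit as fixed called 3.57% of all genes, and the fit with the replicate block 8.58%. Over the 104 genes of the 9 pathway lists, 11 were called with the design as fixed. The count was 21 with the replicate block (14 higher, 7 lower), 0 by the authors' FDR p-value, 1 without both arrays of replicate 1 and 4 to 7 with 1 array left out, where fewer arrays are part of the construction. The other alternatives gave 11 to 14. Among the named genes read across these alternatives, directions turned only for those that were not called. With 1 array left out, log2 differences ran from -0.0369 to 0.25 for Zeb2, -0.34 to 1.07 for Snai2, -0.0496 to 0.11 for Twist1, -0.10 to 0.0843 for Tagln, -0.00174 to 0.14 for Mir200a, -0.0480 to 0.16 for Mir200b, -0.0486 to 0.14 for Srf, -0.0572 to 0.20 for Lyve1 and -0.0203 to 0.17 for Stab2. In the authors' averages Snai2 was -0.31, Tagln -0.10 and Lyve1 -0.0144. Without both arrays of replicate 1, Twist1 was -0.0842, Tagln -0.0721 and Lyve1 -0.00532, and with quantile normalization Srf was -0.00136. The cause was not tested. Twist2, Tagln and all microRNA gene rows are below the cut for dim genes and have no value there, as do some markers of other cell types. The number of arrays, 3 per group, and the lack of a detection call limit what can be said of Snai1, Twist1, Twist2 and Tagln.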
